A study of Mus musculus with 31 samples.

Results

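The Hnrnp and Srsf genes encode the heterogeneous nuclear ribonucleoproteins and the serine/arginine-rich splicing factors. Members were all genes whose symbol, taken through the RefSeq accession of the probe, began with Hnrnp or Srsf. This gave 30 genes (20 Hnrnp and 10 Srsf) with 54 probes, of 19902 genes with 26345 probes. Of the 34 RefSeq symbols with these beginnings, 4 had no matched probe (Srsf11, Hnrnpa1l2-ps, Hnrnpa1l2-ps2 and Srsf3-ps). A gene was represented by its brightest probe, and 16 genes had more than 1 probe.

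The arrays came from NMRI mice at postnatal day 5. Each of 31 two-color Agilent arrays compared RNA pooled from 6 hemispheres labelled with Cy5 against another pool labelled with Cy3. Values are log2 ratios of Cy5 to Cy3. For MgSO4 alone, uninjured mice given 600 mg/kg were in Cy5 and control mice in Cy3. The controls were given PBS by the labels and had no intervention by the methods. There were 7 arrays at 6 h and 4 each at 3, 12 and 24 h. The route was subcutaneous in the labels and intraperitoneal in the methods. On the RV PBS arrays, mice with hypoxia-ischemia (HI, ligation of the right carotid followed by hypoxia) were in Cy5 and control mice in Cy3, with 3 arrays at 3 h and 3 at 12 h. The treatment label of these Cy5 pools named MgSO4, against their titles and source, and HI without MgSO4 was assumed here. The RV Mg arrays (3 at 3 h and 3 at 12 h) involved mice given MgSO4 (600 mg/kg) before HI. Their partner pool was MgSO4-treated uninjured mice in the titles and HI mice in the design text and methods, so their values are given by channel, with no treatment direction. By the labels no dyes were swapped within any group, so a dye effect cannot be told apart from the treatment.

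hnRNP proteins coat nascent transcripts in the nucleus. Many of them silence splice sites, and several also govern the transport, stability and translation of messenger RNA. SR proteins bind exonic enhancers and recruit the core spliceosome through domains rich in arginine and serine, which SR protein kinases phosphorylate. In the developing brain the balance between both families helps to set which exons neurons include.

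Promoters of 28 members were found in RefSeq (GRCm38.p6), all but Hnrnpll and Hnrnpul2. In the 250 bases before the start, the members had a median of 24 CpG dinucleotides and 66.6% G plus C, against 6 and 52.0% over all 27025 promoters. The GC box GGGCGG was present on either strand in 22 of 28 members (78.6%) and in 32.9% of all promoters. The CCAAT box (CCAAT) was present in 15 members (53.6%) and in 34.5% of all promoters. The ETS core CCGGAAG was present in 5 members (17.9%, against 7.05%), the TATA box TATAAA in 3 (10.7%, against 13.0%) and the cyclic AMP element TGACGTCA in 0 (against 1.62%). The 4 members that the results below turn on are shown 5′ to 3′ on the strand of the gene, with matches to these 5 motifs in capitals. Hnrnpa2b1 (chr6:51469895-51470144, minus strand, the first of 2 listed starts) and Hnrnpa0 (chr13:58128557-58128806, minus strand) had the largest log2 ratios after HI at 3 h and 12 h. Hnrnpab (chr11:51606882-51607131, minus strand) had the largest mean on the RV Mg arrays, and Srsf6 (chr2:162931258-162931507, plus strand) had 1 sign on all MgSO4 arrays as labelled. A match is only a description of the letters.
Hnrnpa2b1: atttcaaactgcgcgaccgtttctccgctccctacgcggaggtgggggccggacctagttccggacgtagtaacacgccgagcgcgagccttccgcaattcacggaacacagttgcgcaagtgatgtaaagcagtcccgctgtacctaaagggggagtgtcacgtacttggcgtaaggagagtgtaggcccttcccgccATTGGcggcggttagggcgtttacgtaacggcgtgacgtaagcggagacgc
Hnrnpa0: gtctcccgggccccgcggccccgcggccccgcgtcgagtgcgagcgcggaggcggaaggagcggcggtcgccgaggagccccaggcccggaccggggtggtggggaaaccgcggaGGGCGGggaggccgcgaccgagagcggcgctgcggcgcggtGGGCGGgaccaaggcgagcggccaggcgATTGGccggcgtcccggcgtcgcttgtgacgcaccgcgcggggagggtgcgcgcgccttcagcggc
Hnrnpab: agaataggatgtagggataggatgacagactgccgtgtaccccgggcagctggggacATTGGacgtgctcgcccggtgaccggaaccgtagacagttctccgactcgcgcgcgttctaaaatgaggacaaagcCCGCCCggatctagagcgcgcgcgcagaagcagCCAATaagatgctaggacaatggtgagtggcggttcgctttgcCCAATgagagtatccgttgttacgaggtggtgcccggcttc
Srsf6: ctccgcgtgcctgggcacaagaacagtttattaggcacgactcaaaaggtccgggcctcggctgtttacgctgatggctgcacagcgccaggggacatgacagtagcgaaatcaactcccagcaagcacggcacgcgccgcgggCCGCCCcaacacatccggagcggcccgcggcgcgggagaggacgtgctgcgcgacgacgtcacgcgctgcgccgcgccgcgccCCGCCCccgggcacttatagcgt
The Hnrnpa0 window held 46 CpG dinucleotides and 2 GC boxes, and the Srsf6 window 35 CpG dinucleotides and 2 GC boxes. The windows of Hnrnpa2b1 and Hnrnpab held 29 and 23 CpG dinucleotides with 1 and 3 CCAAT boxes.

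All members were measured well. The brightest probes of 29 members were well above background in both channels on all 31 arrays, and that of Hnrnph3 on 29 arrays. All 30 members were therefore tested in every comparison. The share of spots well above background lay between 45.2% and 69.7% in Cy3 and between 54.4% and 70.2% in Cy5. Markers of the forebrain were present, since 10 of 10 neuronal, 8 of 8 astrocytic and 8 of 8 oligodendrocyte lineage genes were well above background in both channels on every array. Only 2 of 6 choroid plexus genes reached this, which limits their medians below.

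No member passed the test in any group. The mean of each group was compared with 0 by limma. Calls needed a fold of at least 1.5 and a p under 0.05 after Benjamini-Hochberg adjustment across the tested probes. Each array was taken as a separate pool, so p-values measure the spread between these arrays. The methods give 3 independent samples per MgSO4 time, fewer than the arrays. Whether some arrays shared a pool is not stated, and p-values would then understate the spread. Replicates 2 and 6 at 6 h after MgSO4 correlated at 0.859 over all probes. At 3 h after HI, 0 of 30 members were called, against 3.82% of 14557 genes. At an unadjusted p under 0.05, 11 members passed (36.7%), beside 37.1% of all genes. Without the fold requirement 3 members passed, all with higher levels after HI (Hnrnpa2b1, Hnrnpa0 and Hnrnpul2), which is 10% of members against 14.9% of all genes. A missed threshold does not show that a level was equal.

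Hnrnpa2b1, an A/B-type protein of splicing and RNA transport, came nearest to a call at 3 h after HI. Its log2 ratio was 0.67, 0.63 and 0.46 on the 3 arrays. All 3 values were above 0, with a mean of 0.58 ± 0.11 (SD, n = 3), a fold of 1.499 and a limma adjusted p of 0.0206. It was thus just under the fold limit. Without replicate 3 its mean was 0.65 (adjusted p 0.0486, limma) and it was called, in a fit of 2 arrays that called 2.30% of genes. Its second probe, 5.59 log2 units dimmer, had a mean of 0.09 ± 0.30 (SD, n = 3).

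Hnrnpa0, which binds AU-rich elements of messenger RNAs, had log2 ratios of 0.26, 0.38 and 0.47 at 3 h after HI. Its mean was 0.37 ± 0.10 (SD, n = 3), with an adjusted p of 0.0371 by limma. Hnrnpul2, a nuclear protein related to hnRNP U, had 0.25, 0.43 and 0.40. Its mean was 0.36 ± 0.10 (SD, n = 3, limma adjusted p 0.0374). Both were above 0 on every array, and neither reached 1.5-fold. The SR proteins Srsf5 (0.15, 0.46 and 0.32) and Srsf2 (0.19, 0.36 and 0.31) followed. Their adjusted p-values were 0.0651 and 0.0521 in limma.

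The remaining members lay close to 0 at 3 h after HI. Over all 30, means ranged from -0.17 (Srsf9) to 0.58, 20 were positive and the median was 0.10, against -0.03 over all genes. The members' median on the single arrays was 0.16, 0.08 and 0.07. The 95% confidence interval of 29 members lay within 1.5-fold in both directions. Replicates agreed more closely here than in the other groups, with a median SD of 0.08 over the members.

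**Figure D1:**
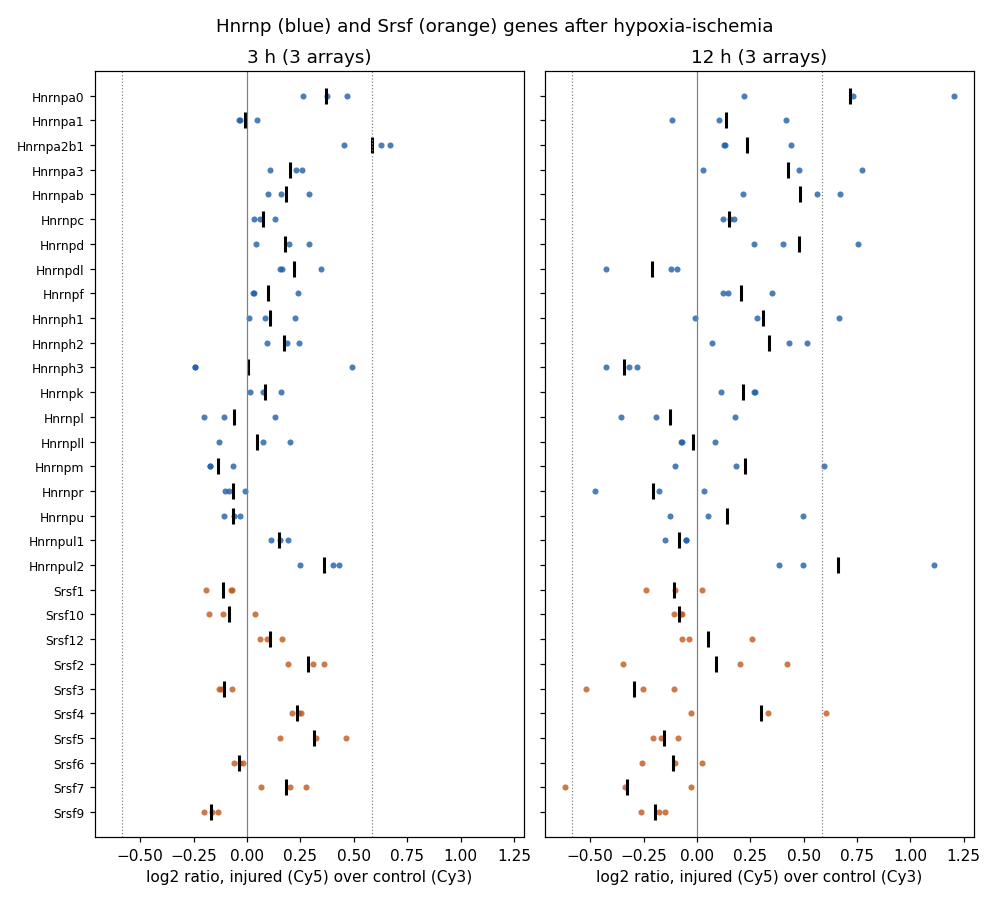
Log2 ratio of HI (Cy5) to control (Cy3) for the brightest probe of each Hnrnp (blue) and Srsf (orange) gene. Points are the 3 arrays at 3 h and the 3 at 12 h, black bars are means and dotted lines mark 1.5-fold. Hnrnpa2b1 has the largest mean at 3 h (0.58) and Hnrnpa0 at 12 h (0.72), where the points of most genes spread wider.

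At 12 h after HI, 0 of 30 members were called, against 0.0137% of 14604 genes. The 5 largest means with 1 sign on every array belonged to hnRNP genes. Hnrnpa0 had log2 ratios of 1.20, 0.73 and 0.22, a mean of 0.72 ± 0.49 (SD, n = 3, limma adjusted p 0.114). Hnrnpul2 had 1.11, 0.50 and 0.38, a mean of 0.66 ± 0.39 (SD, n = 3, limma adjusted p 0.105). In each case replicate 1 was the highest and replicate 3 the lowest. For Hnrnpa0 the second probe did not follow, with 0.38, 0.03 and -0.49 (mean -0.03 ± 0.44, SD, n = 3), so this value rests on 1 probe.

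The same order of arrays held for the next members. Hnrnpab, an A/B protein of neuronal RNA granules, had log2 ratios of 0.67, 0.56 and 0.22 (mean 0.48 ± 0.24, SD, n = 3). Hnrnpd, also known as AUF1, a factor of AU-rich messenger RNA decay, had 0.76, 0.40 and 0.27 (mean 0.48 ± 0.25). Hnrnpa3, an A/B protein of RNA trafficking, had 0.77, 0.48 and 0.03 (mean 0.43 ± 0.38). Adjusted p-values of these members lay at 0.116, 0.121 and 0.190 in limma. Replicate 3 decided the calls: without it 4 members were called, Hnrnpa0 (mean 0.97), Hnrnpul2 (0.80), Hnrnpa3 (0.63) and Hnrnpab (0.62), with adjusted p-values between 0.0149 and 0.0384 in limma. That fit rested on 2 arrays and called 17.4% of all genes. Replicate 3 also stood apart in the median over all spots of the array, which was 0.09 against -0.15 and -0.14 on the other arrays. Over the genes tested it did not stand apart, with medians of 0.033, -0.014 and -0.027 on replicates 1, 2 and 3. The part of the shift over all spots in the members' values was not tested, and with each array centred on its own median 0 members were called.

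The families lay on different sides at 12 h after HI. Of 20 Hnrnp genes 14 had a positive mean, with a median of 0.21, and of 10 Srsf genes 7 had a negative mean, with a median of -0.11. Srsf3 and Srsf7, small SR proteins that also act in RNA export, had means of -0.29 ± 0.21 and -0.33 ± 0.30 (SD, n = 3). Their adjusted p-values were 0.226 and 0.233 in limma. Hnrnph3, of the G-tract binding H group, had the lowest mean, with -0.28, -0.43 and -0.32 on the 3 arrays. The median of all members was 0.11 and that of all genes 0.0002. Only 18 members had a 95% confidence interval within 1.5-fold in both directions, and the intervals of the other 12 reached past it.

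Over all 6 HI arrays, 10 of 20 Hnrnp genes and 0 of 10 Srsf genes were above 0 on every array. Those 10 were Hnrnpa0, Hnrnpa2b1, Hnrnpa3, Hnrnpab, Hnrnpc, Hnrnpd, Hnrnpf, Hnrnph2, Hnrnpk and Hnrnpul2. Srsf3 and Srsf9 were below 0 on every array. Together 12 of 30 members (40%) kept 1 sign, beside 28.2% of 14316 genes. These counts are of brightest probes, and other probes often differed. The second probe of Hnrnpab was below 0 on all 3 arrays at 3 h (-0.08, -0.02 and -0.05). Second probes of Hnrnpa0 (-0.492), Hnrnpa2b1 (-0.393), Hnrnpc (-0.271) and Hnrnpk (-0.03) fell below 0 at 12 h, and that of Hnrnpf (-0.12) at 3 h. So did the seventh probe of Hnrnpa3 at 12 h (-0.276). The third probe of Srsf3 reached 0.127 at 3 h. Conversely, the second probes of Hnrnpa1 and Hnrnpul1 were above 0 on every HI array. The third probe of Srsf1 was above 0 on every HI array (0.065, 0.193 and 0.096 at 3 h, 0.376, 0.26 and 0.187 at 12 h). The difference between the families was not tested.

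Some members had opposite signs at 3 h and 12 h. Hnrnpul1, Hnrnpdl, Srsf5 and Srsf7 were above 0 on all 3 arrays at 3 h and below 0 on all 3 at 12 h after HI by their brightest probes. This was 4 of 30 members (13.3%), beside 1.98% of all genes, and 0 members ran the other way, beside 2.62% of all genes. Srsf7 had 0.28, 0.20 and 0.07 at 3 h and -0.62, -0.34 and -0.03 at 12 h. Srsf5 had 0.15, 0.46 and 0.32 at 3 h and -0.17, -0.09 and -0.21 at 12 h. The contrast of 12 h minus 3 h was -0.51 (95% CI -0.92 to -0.10, limma adjusted p 0.229) for Srsf7 and -0.47 (-0.77 to -0.17, adjusted p 0.165) for Srsf5. No member was called in this contrast (0% of 14845 genes were), and 4 of 30 passed at an unadjusted p under 0.05, beside 16.7% of all genes. On slide 8, which held 1 array of each time, the difference was -0.69 for Srsf7 and -0.49 for Srsf5. The members were picked by the signs of these same arrays. The direction of the contrasts and of the slide 8 differences was therefore fixed by that choice and is no separate support.

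Other probes did not all share these signs. The second probe of Hnrnpul1, annotated to another transcript and well above background on all 31 arrays, had 0.81, 0.57 and 0.63 at 12 h after HI (mean 0.67 ± 0.12, SD, n = 3, limma adjusted p 0.0777). It lay above 0 on every array, against a mean of -0.09 for the brightest probe. For Srsf7 the second probe had 0.29, -0.20 and -0.07 at 3 h, and for Hnrnpdl it kept both signs on every array.

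Some markers of other processes and cells also lay away from 0 in the same HI pools. All 10 immediate early genes were called higher at 3 h, and their median was 2.30 to 3.28 on the arrays. At 12 h the oligodendrocyte lineage markers had medians of 0.24 to 0.53 and the choroid plexus markers of 0.45 to 0.88, against -0.09 to 0.16 and -0.32 to 0.06 at 3 h. At 12 h 0 of 8 and 0 of 6 of these markers were called. At 3 h all 13 cycling progenitor markers had negative means, and Aurkb was called (-1.42). Mbp was called higher (0.61) and Kcne2 lower (-0.96) at 3 h. The part of all these markers in the members' values was not tested, and in pooled tissue fewer cells of a type and less RNA per cell cannot be told apart.

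On the RV Mg arrays at 3 h, 0 of 30 members were called by their brightest probe, against 5.47% of 14725 genes. Hnrnpab was highest in Cy5. Its log2 ratio was 0.28, 0.62 and 0.78 on the 3 arrays, a mean of 0.56 ± 0.26 (SD, n = 3). It passed the adjusted p alone (0.0476 in limma), as 1 of 30 members (3.33%) beside 8.93% of all genes. Its second probe, 1.43 log2 units dimmer, had -0.14, -0.02 and 0.14 (mean -0.01 ± 0.14), so the value rests on 1 probe. Hnrnpa0 had 0.05, 0.40 and 0.78, and Srsf5 0.16, 0.46 and 0.55. Both were above 0 throughout, with adjusted p-values of 0.148 and 0.0911 in limma.

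Other members were lower in Cy5 on these arrays at 3 h. Hnrnpd had log2 ratios of -0.43, -0.36 and -0.34, a mean of -0.37 ± 0.05 (SD, n = 3, limma adjusted p 0.0618). The 3 values were tight and all below 0. Hnrnpl, which binds CA repeats, had -0.11, -0.33 and -0.48 (limma adjusted p 0.137). The members' median was 0.06, against -0.04 over all genes. Without replicate 1, 2 members were called, Hnrnpab (mean 0.70) and Hnrnpa0 (0.59), in a fit of 2 arrays that called 9.44% of genes.

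**Figure D2:**
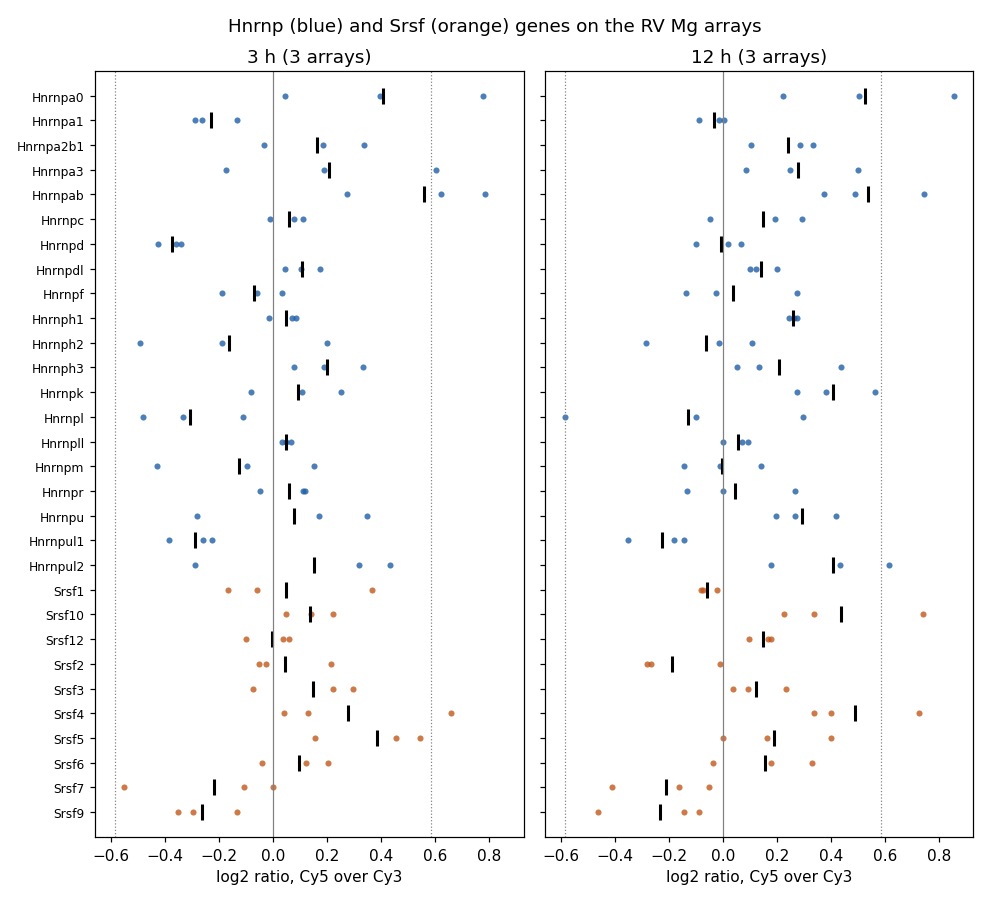
Log2 ratio of Cy5 to Cy3 on the RV Mg arrays for the brightest probe of each Hnrnp (blue) and Srsf (orange) gene. Points are the 3 arrays at 3 h and the 3 at 12 h, black bars are means and dotted lines mark 1.5-fold. Hnrnpab has the largest mean at both times (0.56 and 0.54), and the means of all genes stay inside the dotted lines.

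Dimmer probes gave the only calls among the members. On the RV Mg arrays at 3 h, 3 of 54 member probes were called, beside 7.61% of 19272 probes. They belonged to Hnrnpa0 and Hnrnpa3. The second probe of Hnrnpa0, 4.36 log2 units dimmer than the brightest, had log2 ratios of 1.38, 1.34 and 1.61. Its mean was 1.44 ± 0.15 (SD, n = 3), with an adjusted p of 0.00771 by limma. The brightest probe of the gene, with 0.05, 0.40 and 0.78, lay below this on every array.

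For Hnrnpa3, 7 probes were on the array. The fifth by brightness had log2 ratios of 0.72, 1.17 and 1.39, a mean of 1.095 ± 0.34 (SD, n = 3, limma adjusted p 0.0141). The seventh had 0.50, 0.67 and 0.89, a mean of 0.68 ± 0.20 (SD, n = 3, limma adjusted p 0.0219). These 2 probes were annotated to another RefSeq transcript than the other 5, whose means were -0.02 to 0.23. Both probes were at least 4.02 log2 units dimmer than the brightest one, yet well above background in both channels on these 3 arrays. Among all probes that were not the brightest of their gene, 14.5% were called here, 587 higher and 74 lower in Cy5, beside 3 of 24 such member probes (12.5%). At 3 h after HI the share of such probes called was 3.72%. The part of probe brightness and of the annotated transcript in these calls was not tested.

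**Figure D3:**
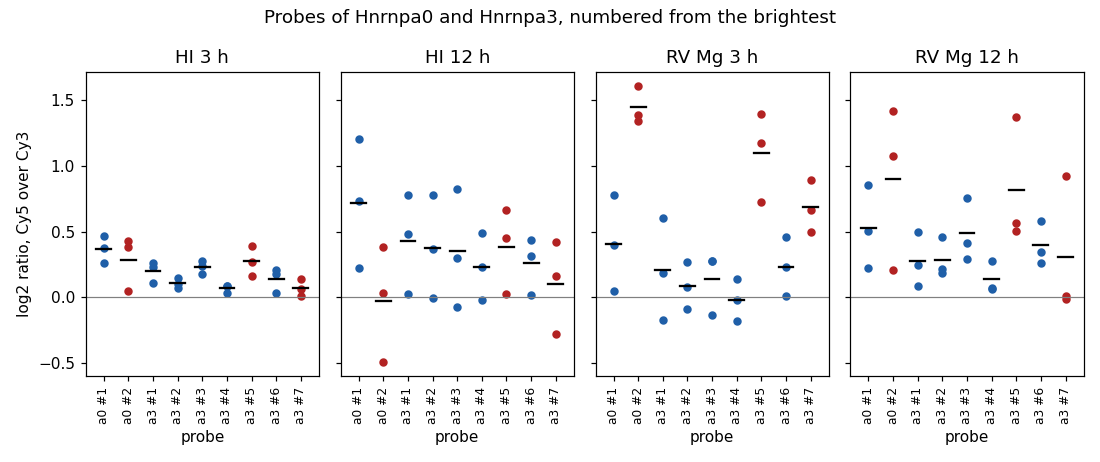
Log2 ratio of Cy5 to Cy3 for each probe of Hnrnpa0 (a0) and Hnrnpa3 (a3), numbered from the brightest, with the 3 arrays of a group as points and their mean as a bar. Red marks the 3 probes called on the RV Mg arrays at 3 h (means 1.44, 1.095 and 0.68), which stand above the other probes of their gene in that panel. After HI at 3 h, probes 5 and 7 of Hnrnpa3 had means of 0.28 and 0.07, against 0.07 to 0.23 for its other probes.

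On the RV Mg arrays at 12 h, 0 of 30 members were called (0% of 14812 genes were), and 8 passed at an unadjusted p under 0.05 (26.7%), beside 24.2% of all genes. Hnrnpab again had the largest value, with 0.75, 0.49 and 0.37, a mean of 0.54 ± 0.19 (SD, n = 3, limma adjusted p 0.0872). Hnrnpa0 had 0.86, 0.22 and 0.51, and Hnrnpul2 0.62, 0.18 and 0.43. Both varied more between arrays than Hnrnpab. Srsf4, an SR protein with a long arginine/serine domain, had 0.40, 0.34 and 0.73 (limma adjusted p 0.0975). Srsf10, an SR protein that turns into a splicing repressor when dephosphorylated, had 0.23, 0.74 and 0.34 (limma adjusted p 0.132).

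The median of the members at 12 h was 0.14 on the RV Mg arrays, against -0.01 over all genes. The contrast of 12 h minus 3 h called 0 of 30 members (0% of 15031 genes were). Over all 6 RV Mg arrays 8 of 30 members (26.7%) kept 1 sign, beside 30.5% of 14506 genes. Hnrnpab, Hnrnpa0, Hnrnph3, Hnrnpdl, Srsf4 and Srsf10 were above 0 throughout, and Hnrnpul1 and Srsf9 below 0.

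After MgSO4 alone, no member was called at any time. At 3 h, 0 of 30 members were called (0% of 14397 genes were), means ran from -0.19 to 0.16 and the median was -0.05. At 6 h, 0 of 30 were called, against 0.0364% of 13725 genes, and the median was 0.04. At 12 h, 0 of 30 were called (0% of 13862 genes were) and the median was 0.11. At 24 h, 0 of 30 were called, against 0.00714% of 14009 genes, and the median was 0.10. At an unadjusted p under 0.05 the members passing numbered 1, 3, 5 and 4 in that order, which is 3.33%, 10%, 16.7% and 13.3% beside 9.20%, 13.4%, 15.9% and 11.3% of all genes. The 95% confidence interval lay within 1.5-fold for 30, 28, 24 and 30 members. Single arrays moved the medians: with each left out in turn, the 3 h median lay between -0.07 and 0.03, the 6 h median between -0.04 and 0.07, the 12 h median between 0.07 and 0.21, and the 24 h median between 0.06 and 0.16. The medians at 3 h and 6 h thus had no stable sign. Contrasts of 6 h with the other times also called 0 of 30 members each, beside 0% (against 3 h), 0.00673% (against 12 h) and 0% (against 24 h) of 14853 genes.

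At 3 h after MgSO4, 3 members had 1 sign on every array (10%, beside 19.4% of all genes), and at 6 h 2 members did (6.67%, beside 6.13%). Besides Srsf6, these were Hnrnpa2b1 at 3 h (0.08, 0.22, 0.03 and 0.05) and Hnrnpll, a paralog of Hnrnpl, at 3 h (-0.13, -0.05, -0.04 and -0.14). On the same 4 arrays Hnrnpa2b1's second probe was below 0 (-0.39, -0.58, -0.54 and -0.09), with a mean of -0.40 ± 0.22 (SD, n = 4, limma adjusted p 0.454). At 6 h Hnrnpul1, a relative of hnRNP U, ran from 0.03 to 0.58 with a median of 0.21 over the 7 arrays (mean 0.25 ± 0.19, SD, limma adjusted p 0.303). None of these values was called.

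Most Hnrnp genes had positive means at the later times. At 12 h 17 of 20 had a positive mean (median 0.16), and at 24 h again 17 of 20 (median 0.15), beside 3 and 5 of 10 Srsf genes. The medians of all genes were 0.02 and -0.01. At 12 h all 10 neuronal markers also had positive means, with medians of 0.35, -0.11, 0.50 and 0.55 on the 4 arrays, and 35 of 40 brain splicing regulators did (0.18, -0.08, 0.28 and 0.53). The members' medians on these arrays were 0.04, -0.06, 0.20 and 0.31. Replicate 2 was also lowest for the astrocyte medians (0.24, -0.14, 0.23 and 0.33) and the oligodendrocyte lineage medians (0.08, -0.22, 0.37 and 0.43). The medians of microglia and macrophages ran the other way (-0.23, 0.17, -0.16 and -0.26). The part of these markers in the members' values and the difference between the families were not tested. Hnrnpr, a protein that carries beta-actin messenger RNA in axons, had log2 ratios of 0.28, 0.03, 0.38 and 0.63 at 12 h (limma adjusted p 0.315). Hnrnpf, of the G-tract binding H group, had 0.25, 0.07, 0.32 and 0.49 at 12 h and 0.28, 0.46, 0.17 and 0.07 at 24 h. Both were above 0 on every array of those times, and Hnrnpf on 16 of all 19 MgSO4 arrays. Hnrnph3 had 0.43, 0.51, 0.17 and 0.25 at 24 h, the largest mean of that time (0.34 ± 0.16, SD, n = 4, limma adjusted p 0.364). Also above 0 throughout were Hnrnpul2 at 12 h (0.10, 0.17, 0.33 and 0.46) and, at 24 h, Hnrnpa3 (0.29, 0.38, 0.29 and 0.13), Hnrnph1 (0.28, 0.63, 0.07 and 0.09) and Hnrnpa0 (0.08, 0.38, 0.29 and 0.32). Srsf3 at 12 h was below 0 throughout (-0.25, -0.13, -0.26 and -0.36, limma adjusted p 0.319). Hnrnpa0 had the largest mean at 12 h, 0.66 ± 0.56 (SD, n = 4, limma adjusted p 0.304), with 1 of 4 arrays below 0.

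Srsf6, the SR protein SRp55, ran against this. Its brightest probe was below 0 on 19 of 19 MgSO4 arrays as labelled. With the signs turned on the 2 arrays of slide 5 at 6 h, whose direction is not settled, it was below 0 on 17 of 19. The log2 ratios were -0.07, -0.25, -0.21 and -0.23 at 3 h, and -0.27, -0.37, -0.36 and -0.17 at 12 h. At 6 h the 7 arrays ran from -0.62 to -0.15 with a median of -0.32, and at 24 h values were -0.35, -0.22, -0.05 and -0.20. The means of the 4 times were -0.19 ± 0.08, -0.40 ± 0.19, -0.29 ± 0.09 and -0.20 ± 0.13 (SD), so none reached 1.5-fold.

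No single time passed for Srsf6 (limma adjusted p 0.544, 0.163, 0.312 and 0.474). It was the only member with 1 sign on all 19 arrays, beside 1.14% of 13289 genes (45 lower and 107 higher). With the signs of those 2 arrays turned, 0 members and 0.00753% of genes had 1 sign throughout. A limma fit added after these values were seen took every array as a separate pool. Its mean of the 4 time means was -0.27 (1.21-fold, limma adjusted p 0.000273). Hnrnpf also passed that adjusted p (0.17, adjusted p 0.0185), which makes 2 of 30 members (6.67%) beside 14.7% of all genes at any fold. The second probe of Srsf6, 1.88 log2 units dimmer, did not follow. It ranged from -0.35 to 0.75 at 6 h and its mean over the 4 times was 0.07, with 11 of 19 arrays below 0. The value of Srsf6 therefore rests on 1 probe.

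**Figure D4:**
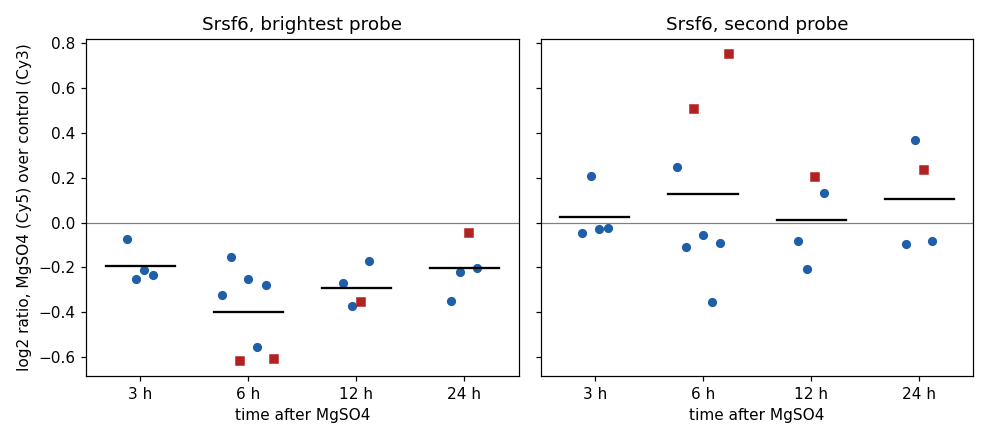
Log2 ratio of MgSO4 (Cy5) to control (Cy3) for both Srsf6 probes at the 4 times, with each array as a point, the mean as a bar and the arrays of slide 5 as red squares. As labelled, the brightest probe is below 0 on all 19 arrays, and the second probe lies on both sides of 0.

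The 6 h arrays did not form 1 group. The 2 arrays of slide 5 (replicates 3 and 7) correlated at -0.42 to -0.01 with the other 5 over all probes, whereas they correlated at 0.56 with each other. The direction of the 6 h ratios is therefore not settled; the labelled dyes were kept, and values with the signs of both arrays turned are given as well. On these 2 arrays the members' median was 0.18 and 0.39, and on the other 5 it was -0.21 to -0.01. Hnrnpa0 had 1.21 and 1.18 on slide 5 and -0.51 to -0.07 elsewhere. In all, 16 of 30 members lay above the other 5 arrays on both arrays of slide 5, beside 29.4% of all genes, and 2 lay below them on both, beside 18.7%. Groups of the other MgSO4 times were uneven as well over all probes. Replicate 1 of the 3 h group correlated negatively with each partner (-0.11, -0.095 and -0.11). In the 12 h group replicate 2 gave 0.04, -0.15 and -0.08 with replicates 1, 3 and 4. Replicates 1 and 3 of the 24 h group gave -0.15. Every remaining pair of these groups correlated positively. The cause was not tested.

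Other measures moved with the split of slide 5 from the other 6 h arrays. The 2 arrays had the lowest shares of spots well above background in Cy3 at 6 h, 49.9% and 45.2%. The oligodendrocyte lineage median was 0.36 and 0.55 on slide 5 and -0.72 to -0.19 elsewhere, the neuronal median 0.31 and 0.37 against -0.38 to 0.02, and the choroid plexus median 0.95 and 1.38 against -0.53 to 0.41. Astrocytes (0.20 and 0.24 against -0.32 to 0.13) and immediate early genes (0.40 and 0.47 against -0.53 to -0.23) were also higher on slide 5. Microglia and macrophages ran the other way, with -0.14 and -0.08 against -0.06 to 0.30. Medians of cycling progenitor, endothelial and blood markers overlapped. The part of these lists in the members' values was not tested. The 6 h count was 0 without slide 5 and 0 with the signs of its 2 arrays turned, and the members' median was then -0.09 and -0.13. With the signs turned, 5 members had 1 sign on all 7 arrays (Hnrnpa0, Hnrnpab, Hnrnpm, Hnrnpu and Hnrnpul2), beside 19.2% of all genes, and Srsf6 and Hnrnpul1 no longer did. Without slide 5, Hnrnpa0 was called in the contrast of 6 h minus 12 h (-0.95, limma adjusted p 0.0394), where 8.50% of genes were. With the signs turned, the mean of Srsf6 at 6 h was -0.05 (limma adjusted p 0.844) and over the 4 times -0.18 (limma adjusted p 0.117).

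**Figure D5:**
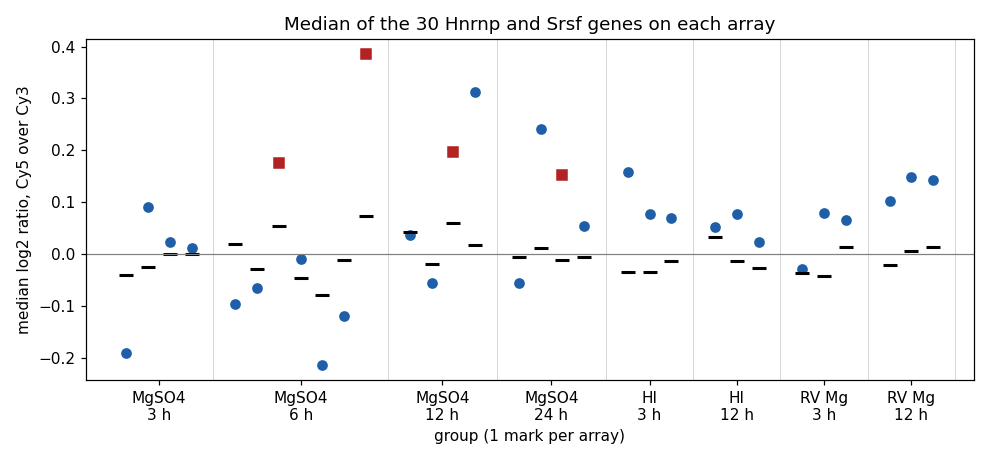
Median log2 ratio of the 30 Hnrnp and Srsf genes on each array (blue, and red squares for slide 5), with the median of all genes tested on that array as a black bar. The 6 h arrays run from -0.21 to 0.39, and all 6 HI arrays lie above 0.

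A few other genes of the splicing machinery were called. At 3 h after HI, where 3.82% of all genes were called, 1 of 18 SR-related activators was higher (Luc7l2, a U1-associated factor, 0.66 ± 0.12, SD, n = 3, limma adjusted p 0.0173). Of 12 tested SR protein kinases and phosphatases 1 was higher, Clk4, which phosphorylates SR proteins. Its log2 ratio was 0.90, 0.89 and 0.52 on the 3 arrays (0.77 ± 0.21, limma adjusted p 0.0213). None was called of 52 core spliceosome, 40 brain splicing regulator and 21 exon junction complex and export genes.

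On the RV Mg arrays at 3 h, 4 of 52 core spliceosome genes were called, all higher in Cy5, beside 5.47% of all genes. Of the same 52 genes 30 had a negative mean, and the median was -0.07. They were U2af2, which reads the polypyrimidine tract (1.103 ± 0.09), the U5 components Ddx23 (0.87 ± 0.43) and Eftud2 (0.76 ± 0.05), and the Sm protein gene Snrpb (0.72 ± 0.12, SD, n = 3). Luc7l2 (0.82 ± 0.25) and the exon junction factor Rnps1 (0.88 ± 0.05) were called as well. At the other times and treatments 0 genes of these 5 lists were called, beside the 0 members.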

How the data were processed

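The authors extracted the scans with Agilent Feature Extraction 10.5.1.1. The deposited processed intensities had the background and spatial trend removed and the dyes normalized by linear scaling and LOWESS. The authors' deposited series table holds log10 ratios of Cy5 to Cy3, with many dim features at 0, and was used as an alternative after conversion to log2. Spots marked as outliers were left out here, and spots of a probe were averaged as log2 ratios. Of 39429 probes, 27427 matched a single symbol through RefSeq, and 930 symbols containing Rik were left out. Probes entered a test if 66.7% or more of a group's arrays had a channel well above background. Each group was tested against 0 with limma 3.58.1 in R 4.3.3, and times were compared by contrasts. Scripts were tested on simulated data. Members and gene lists were chosen with earlier results of these data known. Every member could be named. Array values were given for members called and, with fewer than 5 calls, for the largest means with 1 sign on every array, up to 5. Each array was taken as a separate pool, and the number of arrays limits the precision. Normalization, centring, filters, probe choice, tests, slides and left-out arrays were varied. Replicate numbers were not treated as pairs in the main fits. Same-numbered deviations correlated at -0.41 to 0.59, which with so few arrays does not settle whether the numbers pair them.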

Additional observations from a re-analysis of the deposited data

Results flagged for a closer look

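Hnrnpul1, Hnrnpdl, Srsf5 and Srsf7 stood out because every 3 h array after HI lay above 0 and every 12 h array below 0. The difference of 12 h minus 3 h was -0.24 for Hnrnpul1 (0.15 at 3 h and -0.09 at 12 h), -0.44 for Hnrnpdl (0.22 and -0.21), -0.47 for Srsf5 (0.31 and -0.15) and -0.51 for Srsf7 (0.18 and -0.33). The difference itself was tested, and the limma adjusted p-values of Hnrnpul1, Hnrnpdl, Srsf5 and Srsf7 were 0.317, 0.213, 0.165 and 0.229. On slide 8, with 1 array of each time, the 4 differences ran from -0.69 to -0.26. Their direction was fixed in advance, since the members were picked by the signs on these arrays. The second probe of Srsf7 was 0.29, -0.20 and -0.07 at 3 h, so its 3 h sign was not shared. That of Hnrnpul1 was 0.81, 0.57 and 0.63 at 12 h, opposite to the brightest probe on every array. That of Hnrnpdl was 0.13, 0.13 and 0.01 at 3 h and -0.27, -0.23 and -0.06 at 12 h. No single array was set apart from its group in 19 sets of MgSO4 values for which this was examined. Arrays that lie apart together can escape such a check, so it does not show that the groups were uniform. The arrays of slide 5 at 6 h correlated at -0.42 to -0.01 with the others of that time over all probes.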

How the results depend on the processing

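Counts of called members were 0 in all comparisons and stayed 0 in 206 of 214 recalculations. Without a minimum fold, 3 members passed at 3 h after HI and 1 on the RV Mg arrays at 3 h. On the latter, the mean of the tested probes called 1 member and the tested probe with the largest mean 2 (Hnrnpa0 and Hnrnpa3). Leaving out each array gave 0 to 1 member at 3 h after HI, 0 to 4 at 12 h after HI and 0 to 2 on the RV Mg arrays at 3 h. Without slide 5, chosen after seeing the data, 1 member was called in MgSO4 6 h minus 12 h. The members' median kept within 1 SD of the arrays in 76 of 83 recalculations. It was 0.18 at 12 h after HI with centring, and 0.091 (normexp and loess) and 0.22 (centring) on the RV Mg arrays at 12 h. With single arrays left out it was 0.0471 to 0.129 at 3 h after HI, 0.0227 to 0.12 at 12 h after HI, and 0.0896 to 0.139 on the RV Mg arrays at 12 h. The cause of these shifts was not tested. None of 269 values of named members changed sign. With the replicate block 0 members were called in every contrast, and it changed no other call. Slide as a random block could not be fitted in the HI and RV Mg groups of 3 arrays. Array number limits all values, and signal near background limits those of dimmer probes.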
